A study of Mus musculus with 18 samples.

Results

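The genes described here were the 10 that encode the beaded filament and the membrane skeleton of the lens fibre cell, namely *Bfsp1*, *Bfsp2*, *Vim*, *Nes*, *Tmod1*, *Sptan1*, *Sptbn1*, *Ezr*, *Prx* and *Ank2*. They were taken by symbol from the gene table, in which each had 1 Ensembl identifier among 40800, and all 10 were among the 13938 genes that had enough reads to be tested. RNA was sequenced from whole mouse lenses, pooled within each library, of C57BL/6J mice. The *Cryaa*-R49C knock-in line was sampled at 2 days of age as wild-type (*Cryaa*-WT), heterozygous (*Cryaa*-R49C-het) and homozygous (*Cryaa*-R49C-homo) lenses. The *Cryab*-R120G knock-in line was sampled at 14 days of age as lenses of the corresponding groups *Cryab*-WT, *Cryab*-R120G-het and, for homozygotes, *Cryab*-R120G-homo. Each of the 6 groups had 3 libraries, 18 in all. R49C and R120G are point mutations of the lens chaperones αA-crystallin and αB-crystallin, carried at the gene's own locus and therefore in every cell that uses it, and both cause hereditary cataract. For the 6 mutant libraries of the *Cryab* line the genotype label names the other mutation, and the group was taken from the titles. Line and age changed together, so effects of the line, the age and the time of collection cannot be told apart. The study's methods call the libraries of a group biological replicates, each made from several lenses combined. Whether the pools came from separate litters is not given in the sources used here, and p-values measure the spread between these pools.

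A lens is a layer of epithelial cells over a mass of long fibre cells, which lose their nuclei and organelles as they mature but keep a stable cytoskeleton. Fibre cells build a beaded filament, an intermediate filament made only in the lens from filensin (*Bfsp1*) and CP49, also called phakinin (*Bfsp2*). It lies against the plasma membrane together with a spectrin and actin network, and mice without either protein have lenses of lower optical quality and reduced stiffness. Mutations in both genes cause cataract in people, and some inbred mouse strains carry a natural deletion within *Bfsp2*. Vimentin (*Vim*) is the intermediate filament of epithelial and young fibre cells, and nestin (*Nes*) is a filament protein of progenitor cells that also occurs in fibres. Tropomodulin 1 (*Tmod1*) caps the slow-growing ends of actin filaments in the spectrin network. αII-spectrin (*Sptan1*) and βII-spectrin (*Sptbn1*) form that network, and ankyrin-B (*Ank2*) anchors it to membrane proteins. Ezrin (*Ezr*) links actin filaments to the membrane, and periaxin (*Prx*) is a scaffold protein of the fibre membrane that is also a defining protein of myelinating Schwann cells.

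On the GRCm38 assembly, the GENCODE annotation places *Bfsp1* on the minus strand of chromosome 2 from 143826528 to 143863173 and *Bfsp2* on the minus strand of chromosome 9 from 103424924 to 103480420. *Bfsp2* shares chromosome 9 with *Cryab*, which starts at 50751325, and *Ezr* shares chromosome 17 with *Cryaa*. *Tmod1* lies on the plus strand of chromosome 4 from 46038935 to 46116032. Whether the counting used strand is not given in the sources used here. Only unambiguous reads were assigned, so without strand, reads from exon bases shared with a gene on the opposite strand would be left out. The levels per length of genes with such overlap would then be too low. Such overlap covered 32.6% of the exon bases of *Tmod1* (with *Tstd2*) and 11.8% of those of *Bfsp2* (with the antisense gene *5830418P13Rik*), and at most 5.38% in *Prx*, *Sptbn1*, *Ezr* and *Ank2*. The overlapping genes were themselves low, with *Tstd2* between 1.45 and 4.36 and *5830418P13Rik* between 1.35 and 7.21 CPM (counts after scaling to a common library size) over the 18 libraries. Without strand, these levels would lack the shared reads as well.

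The sequences before the RefSeq starts of the beaded filament genes are shown because *Bfsp1* and *Bfsp2* were both lower in every *Cryaa*-R49C-homo library than in any WT library. Each is the 250 bases before the transcription start of the RefSeq annotation on GRCm38, chr2:143863174-143863423 for *Bfsp1* and chr9:103449177-103449426 for *Bfsp2*, both read on the minus strand. For *Bfsp1* both annotations place the start at the same base. For *Bfsp2* they differ, since GENCODE starts the gene at 103480420, and the window lies within an intron of the gene as GENCODE draws it. It therefore precedes the RefSeq start only. Capitals mark a match on either strand to TGCTGA, the core of the site bound by the MAF transcription factors.
Bfsp1: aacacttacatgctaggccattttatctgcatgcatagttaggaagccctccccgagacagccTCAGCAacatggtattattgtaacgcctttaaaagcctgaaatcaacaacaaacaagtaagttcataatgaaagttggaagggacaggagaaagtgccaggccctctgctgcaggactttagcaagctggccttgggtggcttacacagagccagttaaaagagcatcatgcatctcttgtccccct
Bfsp2: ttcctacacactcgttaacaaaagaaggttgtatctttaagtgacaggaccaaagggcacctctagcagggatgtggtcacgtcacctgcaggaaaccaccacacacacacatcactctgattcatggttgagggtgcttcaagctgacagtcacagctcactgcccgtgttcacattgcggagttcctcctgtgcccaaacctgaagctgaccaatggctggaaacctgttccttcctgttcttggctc
The *Bfsp1* window held 1 match, beginning 187 bases before the start and read on the opposite strand, and the *Bfsp2* window held none. The same letters occurred in 16.1% of all 32851 promoter windows of this length, so the match is a description of the sequence alone.

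Levels are given as CPM after TMM scaling, in which each count is divided by the library total multiplied by a factor that aligns the bulk of the genes between libraries. The libraries held 14272174 to 29639719 counts and had scaling factors of 0.488 to 2.266, so 1 CPM stood for 23.47 to 45.41 counts in the *Cryaa* line and for 9.078 to 18.18 counts in the *Cryab* line. Crystallin genes took 23.85% to 76.15% of the counts of a library. A single transcript, *Gm42418*, took 7.97% to 42.56% of the counts in 17 libraries and 2.532% in *Cryaa*-R49C-homo replicate 1, which also had the largest scaling factor. Lens fibre markers were abundant throughout, with a summed level of 18850 to 311600 CPM, led by *Cryba1*. The fibre membrane gene *Lim2* was listed at 0 counts in all 18 libraries. Its Ensembl identifier was absent from the GENCODE annotation used here, and why it had no counts was not tested, so the 0 is not read as missing RNA.

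Compared per kilobase of the gene length behind the deposited RPKM values, the beaded filament genes were the most abundant of the 10 in WT lenses at both ages. *Bfsp2* came first, with 1529 ± 314 CPM per kilobase (SD, n = 3) in *Cryaa*-WT and 4023 ± 792 in *Cryab*-WT. *Bfsp1* was second with 380 ± 137 in *Cryaa*-WT and 1061 ± 184 in *Cryab*-WT, and *Vim* came next with 148 ± 33.7 and 281 ± 38.3. The ranges of these 3 genes did not overlap within either WT group. *Ezr* followed with 22.6 ± 2.82 and 27.8 ± 3.42 CPM per kilobase. *Sptan1* (12.7 ± 3.31) and *Sptbn1* (10.7 ± 3.06) overlapped in *Cryaa*-WT, whereas *Sptan1* (22.4 ± 3.97) stood above *Sptbn1* (12.0 ± 1.31) in every *Cryab*-WT library. *Ank2* (3.57 ± 0.843) and *Tmod1* (3.54 ± 0.636) lay together in *Cryaa*-WT, and *Tmod1* (7.94 ± 1.75) was higher than *Ank2* (4.47 ± 0.677) in *Cryab*-WT. *Prx* and *Nes* were the lowest, with 1.19 ± 0.407 and 0.729 ± 0.0733 in *Cryaa*-WT and with 1.10 ± 0.0390 and 0.189 ± 0.0147 in *Cryab*-WT, overlapping in the first group only. Gene lengths came from the authors' annotation, and the GENCODE exons of *Vim* are longer than the table's gene (4743 against 2335 bases), so the level of *Vim* per length depends on the annotation by about that ratio.

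**Figure D1:**
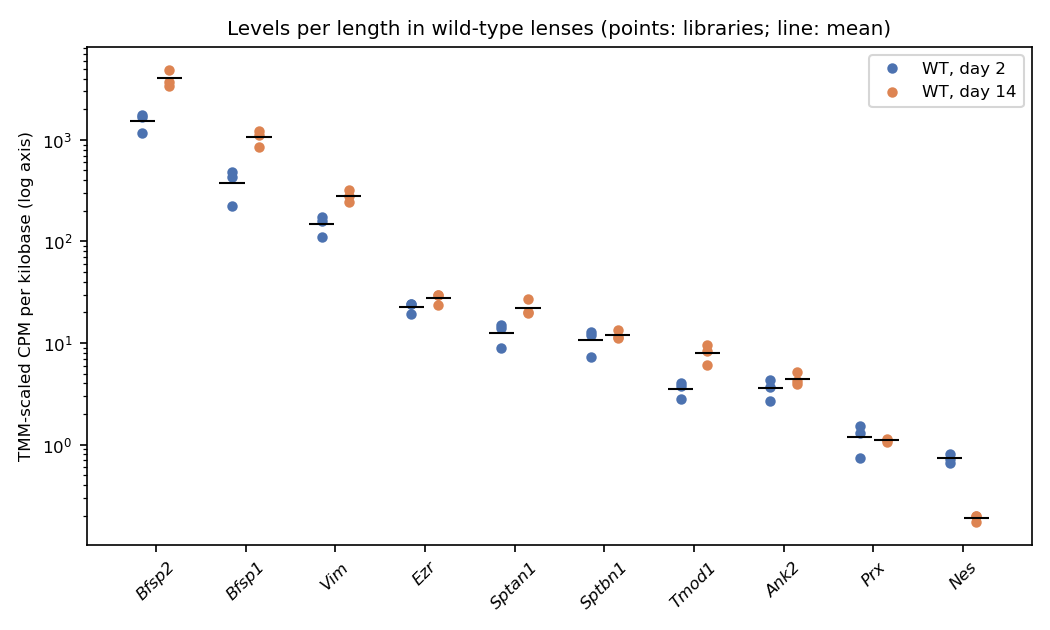
Levels of the 10 genes per kilobase in wild-type lenses (vertical log axis, TMM-scaled CPM per kilobase), with each point a library, blue for day 2 (*Cryaa*-WT) and orange for day 14 (*Cryab*-WT), and a black line at the mean of 3 libraries. *Bfsp2* is at the top with means of 1529 and 4023 and *Nes* at the bottom with 0.729 and 0.189.

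The first comparison asked how the genes differed between *Cryaa*-R49C-homo and *Cryaa*-WT lenses at day 2. *Bfsp1* and *Tmod1* fell, *Bfsp2* had a fold change of similar size that did not pass the test, and the spectrin genes had nearly the same mean in both groups. An adjusted p is the Benjamini-Hochberg value over the 13938 genes of 1 comparison, from edgeR's quasi-likelihood test in 1 model of the 6 groups, and a gene was called at 0.05 or less. Of the 10 genes, 2 were called, both lower, against 9.79% of all genes tested, of which 679 were higher and 685 lower. With library size alone as the scaling, 2138 genes were called, 1884 of them higher, and the 10 genes had 6 calls, of which those of *Bfsp1* and *Tmod1* were lower. The median log2 fold change was 0.05 over the 10 genes and 0.00473 over all genes.

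*Bfsp1* was measured at 1033, 1154 and 538 CPM in the 3 *Cryaa*-WT libraries, at 602, 701 and 373 CPM in *Cryaa*-R49C-het, and at 106, 273 and 201 CPM in *Cryaa*-R49C-homo. All 3 homozygous libraries lay below all 6 others, while the heterozygous and WT libraries overlapped. The log2 fold change of homo against WT was −2.23 ± 0.345 (SE), a 4.69-fold lower level, with an adjusted p of 0.000158. The gene was called in each of the 16 alternative analyses, in which its log2 fold change lay between −2.56 and −1.75.

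*Bfsp2*, the assembly partner of *Bfsp1*, was at 2839, 2978 and 1991 CPM in *Cryaa*-WT, at 2357, 3048 and 1938 CPM in het, and at 1177, 586 and 640.0 CPM in homo. The homozygous libraries again lay below all others, and het and WT overlapped. The log2 fold change of −1.70 ± 0.665 had an adjusted p of 0.131. The model shares 1 estimate of each gene's spread over all 6 groups, and 1 library of the other line, *Cryab*-R120G-homo replicate 2, stood far apart for this gene, at 341 CPM. Without that library, a choice made after its values were seen, the log2 fold change was −1.70 ± 0.349 with an adjusted p of 0.00299. With only the 9 libraries of the *Cryaa* line it was −1.68 ± 0.349 with an adjusted p of 0.0109. The adjusted p lay between 2.94e-06 and 0.324 over all alternatives, and 6 of them called the gene. The antisense gene *5830418P13Rik*, whose exons overlap those of *Bfsp2*, had log2 fold changes of −1.03 ± 0.333 in homo (adjusted p 0.0532) and −1.05 ± 0.332 in het (adjusted p 0.836) against WT.

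*Tmod1*, the cap of the membrane actin filaments, was at 15.04, 15.8 and 11.1 CPM in *Cryaa*-WT, at 16.1, 21.2 and 14.0 CPM in het, and at 7.69, 2.29 and 2.59 CPM in homo. Replicates 2 and 3 of the homozygous group were lowest, from 73 and 68 counts, and replicate 1 lay between them and the lowest WT library. The log2 fold change was −1.72 ± 0.361, 3.29-fold lower, with an adjusted p of 0.00364. The call was lost when only the 6 libraries of the 2 groups were fitted (adjusted p 0.0619). *Tstd2*, whose exons overlap it on the other strand, had a log2 fold change of −0.30 ± 0.302 (adjusted p 0.601).

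*Vim* and *Ezr* were higher in every *Cryaa*-R49C-homo library than in any *Cryaa*-WT library without passing the test. *Vim* was at 374, 406 and 256 CPM in WT and at 420.0, 598 and 416 CPM in homo (log2 fold change 0.47 ± 0.228, adjusted p 0.208). *Ezr* was at 79.3, 80.0 and 63.6 CPM in WT and at 127, 93.0 and 99.3 CPM in homo (0.52 ± 0.206, adjusted p 0.117). Thus the libraries of the groups did not overlap for 5 of the 10 genes, 3 lower and 2 higher, against 24.5% of all genes tested.

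*Nes* was at 4.60, 4.26 and 5.19 CPM in *Cryaa*-WT and at 3.44, 12.4 and 11.03 CPM in *Cryaa*-R49C-homo. Replicate 1 lay below all WT libraries and the other two above, and the log2 fold change of 0.93 ± 0.334 had an adjusted p of 0.0825. *Ank2* was at 131, 152 and 93.8 CPM in WT and at 125, 242 and 207 CPM in homo, with replicate 1 within the WT range and the other two above it (0.61 ± 0.254, adjusted p 0.14). Without *Cryaa*-R49C-homo replicate 1, the library with little *Gm42418*, both were called, *Nes* at 1.32 (adjusted p 0.000353) and *Ank2* at 0.83 (adjusted p 0.00807), and the number of genes called among all rose to 3092.

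The spectrins were close to level. *Sptan1* was at 160.4, 172 and 102 CPM in *Cryaa*-WT and at 86.3, 191 and 167 CPM in homo, a log2 fold change of 0.04 ± 0.271 (adjusted p 0.958). *Sptbn1* was at 209.9, 226 and 126 CPM in WT and at 126, 267 and 191 CPM in homo, 0.06 ± 0.288 (adjusted p 0.938). *Prx*, from 118 to 214 counts per library in these groups, was at 8.56, 7.23 and 4.13 CPM in WT and at 3.28, 5.44 and 4.64 CPM in homo (−0.58 ± 0.322, adjusted p 0.285). For all 3 genes the groups overlapped.

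Other features of the *Cryaa*-R49C-homo libraries moved alongside. Of the 8 lens fibre markers tested, 5 were lower and none higher than in WT, and their summed level was 18850 to 66830 CPM in homo against 59010 to 86910 CPM in WT. Of the 4 lens epithelium markers 1 was lower (sums of 62.89 to 73.03 in homo against 78.21 to 107.1 CPM in WT), and of the 7 pigment and ciliary epithelium markers 2 were lower (8.898 to 14.95 against 18.45 to 35.11 CPM), so for both lists the sums did not overlap. Of the 9 vessel and mesenchyme markers 2 were higher (sums of 42.24 to 170.6 against 38.4 to 65.87 CPM), and of the 7 macrophage and microglia markers 2 were higher (14.31 to 28.75 against 6.248 to 14.05 CPM). In whole lenses, fewer fibre cells and less of an RNA per fibre cell cannot be told apart. The part of these markers in the changes of the 10 genes was not tested. The Schwann cell list, relevant to *Prx*, summed to 88.33 to 119 CPM in *Cryaa*-WT and 99.51 to 258 CPM in homo and was carried by *Pmp22* (104.2 CPM in *Cryaa*-WT).

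**Figure D2:**
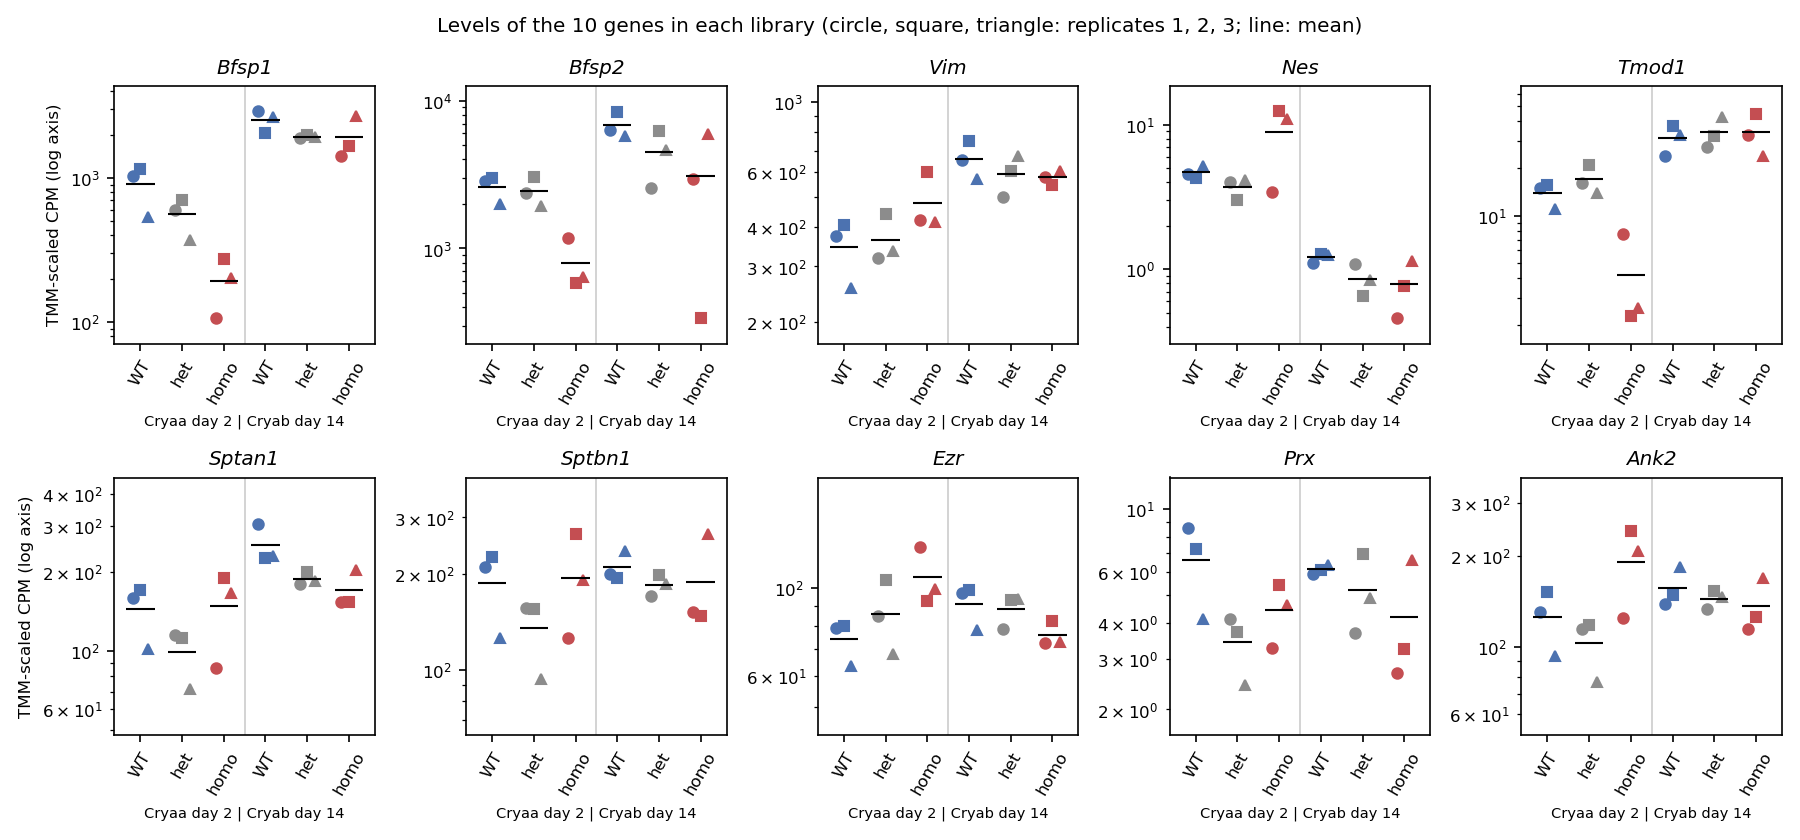
TMM-scaled CPM of the 10 genes in each of the 18 libraries (vertical log axes that differ between panels), with WT in blue, het in grey and homo in red, the *Cryaa* line at day 2 left of the grey line and the *Cryab* line at day 14 right of it, symbols for replicates 1 to 3 and black lines for group means. *Bfsp1*, *Bfsp2* and *Tmod1* are low in the 3 *Cryaa*-R49C-homo libraries (for *Bfsp1* 106, 273 and 201 CPM), and 1 *Cryab*-R120G-homo library has 341 CPM of *Bfsp2*.

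In *Cryaa*-R49C-het lenses none of the 10 genes passed the test against *Cryaa*-WT, where 0.00717% of all genes, a single gene, did and 709 had an unadjusted p below 0.05. The 10 genes had a median log2 fold change of −0.30 against −0.01 over all genes, with 7 of 10 below 0. *Prx* had the largest change, at 4.14, 3.73 and 2.44 CPM in het, with a log2 fold change of −0.95 ± 0.325 (adjusted p 0.836). The Schwann cell list summed to 146.5 to 211.8 CPM in het, above the 88.33 to 119 CPM in WT, with none of 3 called. Both sums were carried by *Pmp22*, with means of 168 CPM in het and 104.2 CPM in WT. The part of this list in the level of *Prx* was not tested. For *Bfsp1* the values were −0.70 ± 0.332 (adjusted p 0.836), for *Sptan1* −0.54 ± 0.272 and for *Sptbn1* −0.47 ± 0.289 (adjusted p 0.836 each). *Bfsp2* (−0.09 ± 0.647), *Vim* (0.08 ± 0.227) and *Tmod1* (0.29 ± 0.346) had changes within 1 SE of 0. No member was called in any alternative analysis of this comparison.

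Homozygous and heterozygous *Cryaa*-R49C lenses were compared next, with the same 3 homozygous libraries as above. Of the 10 genes, 4 were called, 2 lower and 2 higher, against 8.32% of all genes, of which 654 of 1160 were higher (816 of 1019 with library size alone, where the same 4 genes were called). *Tmod1* fell by 2.01 ± 0.362 on the log2 scale (adjusted p 0.00135), and *Bfsp1* fell by 1.53 ± 0.338 (adjusted p 0.00662). *Nes*, at 4.004, 3.04 and 4.16 CPM in het, rose by 1.25 ± 0.336 (adjusted p 0.0228), although homozygous replicate 1 lay within the range of the het libraries. *Ank2*, at 114, 119 and 76.9 CPM in het, rose by 0.89 ± 0.255 (adjusted p 0.0325), and all homozygous libraries were higher. The calls of *Nes* and *Ank2* were both lost without any 1 of the 3 het libraries, without homozygous replicate 2 or without replicate 3 (adjusted p from 0.0572 to 0.198), whereas *Bfsp1* and *Tmod1* were called each time. The calls of *Nes* and *Ank2* were also lost with only the 9 libraries of the line (adjusted p 0.0689 and 0.106). With only the 6 libraries of these groups fitted, *Bfsp1* was also not called (adjusted p 0.0777). *Bfsp2* had a log2 fold change of −1.61 ± 0.663 (adjusted p 0.16), and without *Cryab*-R120G-homo replicate 2 of −1.61 ± 0.348 (adjusted p 0.00648).

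In the *Cryab*-R120G line at day 14, none of the 10 genes passed the test between any pair of genotypes. Among all genes, 0.00717% were called for het against WT, 0.0502% (7 genes) for homo against WT and 0% for homo against het, where 274 genes had an unadjusted p below 0.05 and DESeq2 called none of the 10. After TMM scaling the members lay mostly below 0, with 9 of 10 log2 fold changes negative in each comparison of the line and medians of −0.21, −0.33 and −0.10 against 0.00442, 0.00417 and −0.00296 over all genes. For homo against het those of *Bfsp1* and *Tmod1* were only −0.006 and −0.004. The signs depend on the scaling. With library size alone, *Vim*, *Tmod1*, *Sptbn1*, *Ezr* and *Ank2* lay at 0.0991 to 0.477 for homo against WT and the other members below 0, with a median of 0.366 over all genes. The comparisons against WT share the *Cryab*-WT libraries, and the 2 involving homo share its libraries.

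*Bfsp1* was at 2903, 2048 and 2655 CPM in *Cryab*-WT, at 1888, 1974 and 1931 CPM in *Cryab*-R120G-het, and at 1411, 1681 and 2677 CPM in *Cryab*-R120G-homo. The het libraries lay just below the lowest WT library, and 1 homozygous library was within the WT range. Its log2 fold change was −0.39 ± 0.33 for het against WT (adjusted p 1) and −0.40 ± 0.33 for homo against WT (adjusted p 0.943). *Tmod1*, at 23.9, 37.5 and 32.7 CPM in WT and 32.9, 44.8 and 24.2 CPM in homo, had a log2 fold change of 0.11 ± 0.346 (adjusted p 0.989).

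*Bfsp2* had the widest spread of the 10 genes in these lenses. It was at 6373, 8371 and 5802 CPM in *Cryab*-WT, at 2552, 6234 and 4602 CPM in het, and at 2962, 341 and 5923 CPM in homo. *Cryab*-R120G-homo replicate 2 held 6203 *Bfsp2* counts and lay 7.48-fold below the lowest and 24.5-fold below the highest of the other 8 libraries of the line. Its *Bfsp1* level of 1681 CPM was within the range of the line, so that its ratio of *Bfsp2* to *Bfsp1* per kilobase was 0.285 where the other 8 libraries had 1.90 to 5.74. Among the 3971 genes that averaged 100 counts or more in the other 8 libraries, *Bfsp2* was the only gene more than 5-fold below the lowest of them in this library, a criterion chosen after the value was seen. The group mean of 3076 ± 2793 CPM (SD, n = 3) therefore describes no single library. The log2 fold change of homo against WT was −1.16 ± 0.655 (adjusted p 0.887), and without replicate 2 it was −0.62 ± 0.386 (adjusted p 1), whereas without replicate 3 it was −2.05 ± 0.656 (adjusted p 0.259). The *Bfsp2* genotype of the pooled lenses is not given in the sources used here and was not tested. When every gene with a count was kept in the fit, which the study's filter also did, *Bfsp2* was called (−1.13 ± 0.294, adjusted p 0.0139). In that fit no gene kept a spread of its own, so the call does not reflect the spread of *Bfsp2* between these libraries. The likelihood-ratio test with robust dispersions called 0 of the 10 genes in this comparison.

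**Figure D3:**
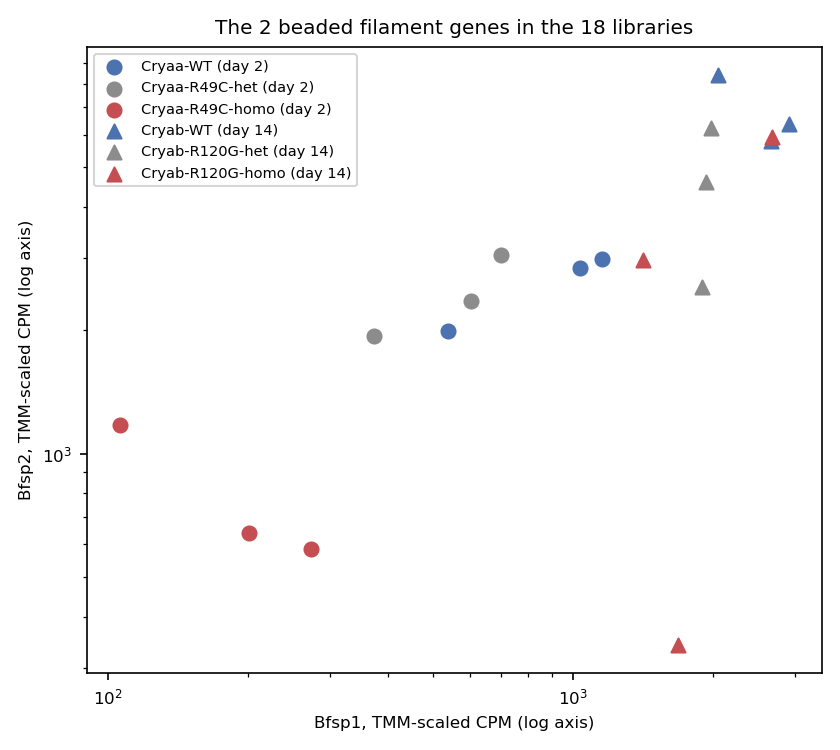
Level of *Bfsp2* (vertical log axis, TMM-scaled CPM) against that of *Bfsp1* (horizontal log axis, TMM-scaled CPM), with each point a library, circles for the *Cryaa* line at day 2, triangles for the *Cryab* line at day 14, and colours for WT (blue), het (grey) and homo (red). The 3 *Cryaa*-R49C-homo libraries are at the lower left, and a *Cryab*-R120G-homo library with 341 CPM of *Bfsp2* and 1681 CPM of *Bfsp1* lies far below the rest of its line.

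Of the network genes in this line, *Sptan1* was the only member whose homozygous libraries all lay on 1 side of WT, at 154, 154 and 205 CPM against 308, 228 and 231 CPM, so 1 of 10 did not overlap against 9% of all genes (−0.58 ± 0.273, adjusted p 0.814). *Prx* was at 5.95, 6.14 and 6.38 CPM in *Cryab*-WT and at 2.69, 3.25 and 6.65 CPM in homo, from 41 to 92 counts (−0.57 ± 0.341, adjusted p 0.901). *Nes* rested on 7 to 19 counts in every library of the line, so only a large change would have been detectable (homo against WT −0.64 ± 0.456, adjusted p 0.927). The changes of *Vim*, *Sptbn1*, *Ezr* and *Ank2* for homo against WT lay between −0.26 and −0.15 on the log2 scale, with adjusted p values of 0.943 to 0.981. Photoreceptor markers, from tissue next to the lens, varied widely among these libraries, with sums of 20.82 to 769.5 CPM in WT and 194.1 to 1150 CPM in homo, and overlapped. The sums of the pigment and ciliary epithelium markers did not overlap between WT (6.169 to 7.644 CPM) and either het (17.17 to 51.65 CPM) or homo (15.29 to 27.01 CPM), although none of the 7 markers was called. The sums of the vessel and mesenchyme markers did not overlap between WT (12.21 to 15.53 CPM) and homo (16.98 to 22.01 CPM), with none of 9 called. The part of these lists in the levels of the 10 genes was not tested.

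**Figure D4:**
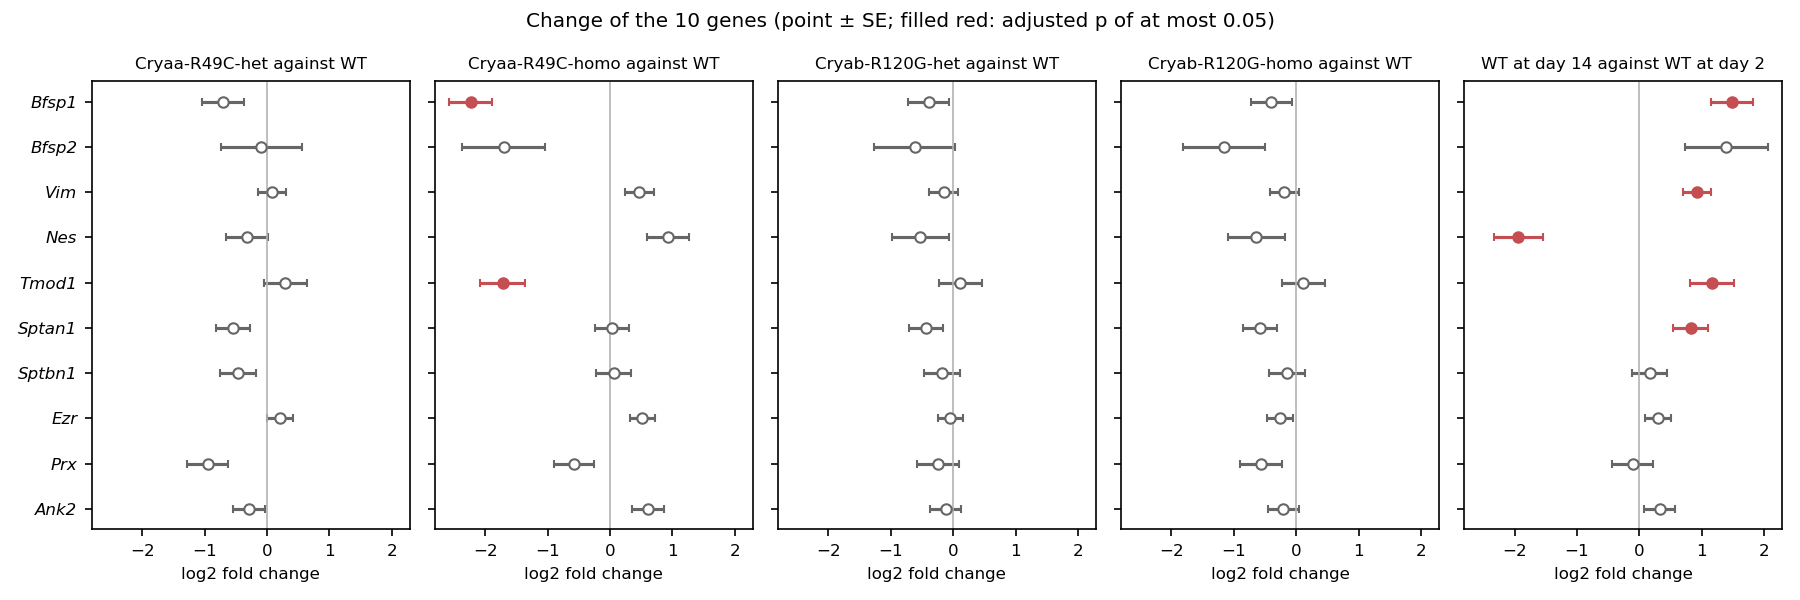
Log2 fold change of the 10 genes (horizontal axis, point ± SE) in 5 comparisons, 1 panel each, with filled red points for an adjusted p of at most 0.05 in edgeR's quasi-likelihood test. *Bfsp1* (−2.23) and *Tmod1* (−1.72) are the filled points for *Cryaa*-R49C-homo, none is filled for the heterozygotes or the *Cryab* line, and 5 are filled for WT at day 14 against day 2.

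The effect of the homozygous mutation was also compared between the lines, as the *Cryab* effect minus the *Cryaa* effect on the log2 scale. Here 2.91% of all genes and 2 of the 10 genes were called. *Bfsp1* differed by 1.83 ± 0.471 (adjusted p 0.0344), with effects of −0.40 in the *Cryab* line and −2.23 in the *Cryaa* line. *Tmod1* also differed by 1.83 ± 0.497 (adjusted p 0.0496), with 0.11 against −1.72. Neither call was stable. With only the 4 groups concerned fitted none of the 10 genes was called, and without 1 library the number ranged from 0 to 4. For *Bfsp2* the difference was 0.55 ± 0.916 (adjusted p 0.84).

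In WT lenses, day 14 of the *Cryab* line was set against day 2 of the *Cryaa* line, a comparison in which age and line cannot be told apart. Of the 10 genes, 4 were higher and 1 was lower at day 14, against 23.2% of all genes called (1634 of 3237 higher). With library size alone, 11596 genes were called, 157 of them higher, and 7 of the 10 genes were called, all lower, namely *Vim*, *Nes*, *Sptan1*, *Sptbn1*, *Ezr*, *Prx* and *Ank2*. The values that follow are after TMM scaling. *Bfsp1* rose by 1.48 ± 0.337 on the log2 scale (adjusted p 0.00294), *Tmod1* by 1.17 ± 0.351 (adjusted p 0.0204), *Vim* by 0.93 ± 0.229 (adjusted p 0.00554) and *Sptan1* by 0.82 ± 0.273 (adjusted p 0.0332). In each of these genes all day 14 libraries were above all day 2 libraries. *Nes* fell by 1.94 ± 0.392, from 4.60, 4.26 and 5.19 CPM to 1.10, 1.27 and 1.26 CPM (adjusted p 0.00114). *Bfsp2* was likewise higher in every day 14 library (1.396 ± 0.659, adjusted p 0.146), and without *Cryab*-R120G-homo replicate 2, which is in neither group but shares the estimate of spread, its adjusted p was 0.00644. *Sptbn1*, *Ezr*, *Prx* and *Ank2* had changes between −0.11 and 0.32 and overlapping libraries.

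These directions depend on the scaling. Crystallin genes took 46.28% to 48.99% of the counts in *Cryaa*-WT and 62.78% to 70.62% in *Cryab*-WT. With library size alone, the median over all genes moved from −0.07 to −1.61, and relative to that median *Bfsp1* stood at 1.62, *Bfsp2* at 1.51, *Tmod1* at 1.27, *Vim* at 1.05, *Sptan1* at 0.94 and *Nes* at −1.90. With that scaling *Bfsp1* had a log2 fold change of 0.01 and *Bfsp2* of −0.099, and neither was called. The calls of *Tmod1* and *Sptan1* were lost without *Cryaa*-WT replicate 3, *Cryab*-WT replicate 2 or *Cryab*-WT replicate 3, and that of *Sptan1* also without *Cryaa*-WT replicate 1 or *Cryab*-WT replicate 1. Lens fibre markers were higher at day 14 for 6 of 8, with sums of 265300 to 300900 against 59010 to 86910 CPM, and photoreceptor markers for 5 of 7, with sums of 20.82 to 769.5 against 7.227 to 30.87 CPM. Lower at day 14 were 7 of 7 macrophage, 6 of 9 vessel, 5 of 7 pigment and ciliary epithelium, 2 of 7 inner retina and glia and 2 of 4 lens epithelium markers. Their part in these changes was not tested.

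Other genes of the same structures were taken as 4 lists of 53 genes, of which 47 were tested and *Sptbn4*, *Sptbn5*, *Tmod4*, *Evpl*, *Prph* and *Krt8* were not. For *Cryaa*-R49C-homo against WT, 3 rose and 3 fell, 12.8% of those tested against 9.79% of all genes. In the list of spectrins, ankyrins, adducins and protein 4.1 genes, *Ank1*, the ankyrin best known from red cells, fell by 3.06 ± 0.525 from 1.89 ± 0.584 to 0.237 ± 0.227 CPM (SD, n = 3, adjusted p 0.00045). *Ank3*, ankyrin-G, fell by 0.70 ± 0.217 (adjusted p 0.0419), and *Epb41l3*, a protein 4.1 that joins spectrin to the membrane, rose by 0.84 ± 0.248 (adjusted p 0.0331). The median of the 16 genes tested was −0.12. In the tropomodulin, tropomyosin and actin list 1 of 9 was called, the tropomyosin *Tpm1*, which rose by 0.67 ± 0.191 (adjusted p 0.0281, list median 0.17). None of the 10 tested ERM, periaxin and dystroglycan complex genes was called (median −0.0043). Of 12 other intermediate filament and linker genes (median −0.54), the nuclear lamin *Lmna* rose by 1.63 ± 0.323, from 4.46 ± 0.577 to 13.8 ± 2.19 CPM (adjusted p 0.00189), and *Plec*, plectin, which ties intermediate filaments to membranes, fell by 0.84 ± 0.232 (adjusted p 0.0226).

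Against *Cryaa*-R49C-het, 4 of the 47 rose and 1 fell in homo, 10.6% of those tested against 8.32% of all genes. Among those that rose, *Epb41l3* changed by 0.91 ± 0.248 (adjusted p 0.0245), *Lmna* by 1.41 ± 0.318 (adjusted p 0.0077) and moesin (*Msn*), a relative of ezrin, by 0.77 ± 0.23 (adjusted p 0.0398). *Ank1* fell by 2.86 ± 0.523 (adjusted p 0.00127). None of the 47 was called in *Cryaa*-R49C-het or in any comparison of the *Cryab* line, and in the difference between the lines *Ank1* (2.74 ± 0.704, adjusted p 0.0344) and *Lmna* (−2.56 ± 0.461, adjusted p 0.0024) were called.

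At day 14 against day 2 in WT, 5 of the 47 rose and 6 fell, 23.4% against 23.2% of all genes. After TMM scaling *Ahnak*, a large scaffold protein under the membrane, rose by 1.36 ± 0.282 (adjusted p 0.00137), and *Slc9a3r1*, a scaffold that binds ERM proteins, fell by 1.35 ± 0.388 (adjusted p 0.0147). Of the adducins, which cap actin filaments in the spectrin network, *Add1* rose by 0.72 ± 0.2 (adjusted p 0.0122) and *Add3* fell by 1.04 ± 0.304 (adjusted p 0.0164). The protein 4.1 relative *Epb41l4a* rose by 0.65 ± 0.219 (adjusted p 0.0344). *Tmod3*, the tropomodulin of most non-erythroid cells, fell by 1.39 ± 0.294 (adjusted p 0.0016) where *Tmod1* rose. *Msn* fell by 1.35 ± 0.246 (adjusted p 0.00044), from 11.6 ± 0.833 to 4.56 ± 0.647 CPM, while *Ezr* had 0.30 ± 0.206 (adjusted p 0.317). Of the lamins, *Lmnb1* fell by 2.05 ± 0.539 and *Lmna* rose by 1.27 ± 0.328 (adjusted p 0.00881 and 0.00744). The day 14 libraries of *Lmna* spread widely, with 10.9 ± 8.09 CPM against 4.46 ± 0.577 CPM at day 2 (SD, n = 3). The neuronal filament gene *Ina* fell by 3.02 ± 0.979 (adjusted p 0.0396).

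Across the 18 libraries, after the mean of each line was removed, the 10 genes fell into different patterns. These correlations are descriptions over libraries that share genotype groups and depth. *Sptan1* and *Sptbn1* moved together (Pearson r = 0.877), as did *Sptbn1* and *Ank2* (r = 0.867) and *Sptbn1* and *Prx* (r = 0.83). *Bfsp1* had r = 0.543 with *Bfsp2* and 0.565 with *Tmod1*, and *Nes* and *Tmod1* were opposed (r = −0.785). Among all genes tested, those most like *Bfsp1* were *Smap2* (r = 0.986), *Cdk18* (0.984) and *Pappa* (0.981). Those most like *Bfsp2* were *Nos1ap* (0.843), *Tmem30b* (0.836) and *Chrna5* (0.826), lower values than for any other of the 10 genes. Per kilobase, *Bfsp2* exceeded *Bfsp1* 3.62 to 5.20-fold in *Cryaa*-WT, 5.49 to 7.30-fold in *Cryaa*-R49C-het, and 15.5, 3.01 and 4.46-fold in the *Cryaa*-R49C-homo libraries, of which the first was replicate 1.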

How the data were processed

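Single reads from poly-A libraries of 18 pooled mouse lens samples were aligned by the authors to GRCm38 with STAR 2.0.4b under Ensembl annotation, and uniquely aligned, unambiguous reads were assigned to genes with featureCounts 1.4.5. The authors deposited these read counts per gene without normalization, and the values were checked to be whole numbers. The table had 41422 lines for 40800 Ensembl identifiers, because identical lines repeat for several Entrez identifiers, and 1 line was kept for each. The deposited RPKM values, which the authors derived from the same reads, were used only to read the gene length behind them. Tables of CPM and of moderated log2 CPM were not used here. Groups were taken from the sample titles.

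The 13938 genes kept by filterByExpr were scaled with TMM and tested with the quasi-likelihood method of edgeR 4.0.16 (R 4.3.3, robust estimation) in 1 model with the 6 groups. P-values were adjusted by the Benjamini-Hochberg method over all genes of a comparison, with a threshold of 0.05. The SE of a log2 fold change was computed from its size and the F statistic. The test was first tried on simulated data. Alternatives were other scalings, no filter, a likelihood-ratio test, DESeq2 1.42.0, fewer groups in the fit, a replicate block, and each library left out in turn. Correlations used log2 CPM with a prior count of 2. Gene positions came from GENCODE vM21 and upstream sequences from RefSeq, both on GRCm38, with all 10 genes matched by symbol in RefSeq. All 10 genes are named, and from each wider list at most the 3 largest changes past the threshold that averaged 10 counts or more in 1 group. The 10 genes and the lists were chosen with earlier results of these data known, and the lists received no test of their own.

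The labels number the replicates 1 to 3 without saying what a number marks. After group means were removed, same-numbered libraries of *Cryab*-WT and *Cryab*-R120G-homo correlated with r = 0.277, 0.176 and 0.156. All were above 0.1, the cut used, and in no other comparison did all 3 pairs pass. These correlations do not show what the numbers mark. The reported tests were unpaired, and the numbers entered only the alternative with a replicate block. No pair of replicates was near-identical in counts. Values of some single genes in the marker and skeleton lists are not reported here.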

Additional observations from a re-analysis of the deposited data

Results flagged for a closer look

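The effect of homozygosity on *Bfsp1* differed between the lines in a direct test, by 1.83 on the log2 scale (edgeR's quasi-likelihood test, adjusted p 0.0344), with *Bfsp1* lower in 3 of 3 *Cryaa*-R49C-homo libraries than in any WT library and overlapping in the *Cryab* line. The effect on *Tmod1* differed by 1.83 as well (adjusted p 0.0496). Of the 19 alternatives, 11 called *Bfsp1* (adjusted p from 0.000356 to 0.1) and 6 called *Tmod1* (from 3.94e-06 to 0.154). Line and age cannot be told apart in either.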

How the results depend on the processing

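The number of the 10 genes past the threshold moved in 5 comparisons. For *Cryaa*-R49C-homo against WT it was 2, and it was 6 with library size alone (*Vim*, *Nes*, *Ezr* and *Ank2* added), 4 with every gene kept (*Bfsp2* and *Nes* added), 6 with the likelihood-ratio test and 2 to 4 with 1 library left out. For *Cryaa*-R49C-homo against het it was 4, and 2 with only the groups compared, where *Bfsp2* and *Tmod1* were called, and 2 to 6 with 1 library left out. For *Cryab*-R120G-homo against WT it was 0, and 1 with every gene kept, a fit in which no gene kept a spread of its own. For WT at day 14 against day 2 it was 5, and 3 to 6 with 1 library left out. For the difference between the lines it was 2, and 1 with library size alone, 1 with TMM without *Gm42418* and the crystallin genes, 0 with only the groups compared and 0 to 4 with 1 library left out. The cause of these shifts was not tested, apart from the spread of *Bfsp2* in *Cryab*-R120G-homo replicate 2.

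With library size alone, WT at day 14 against day 2 gave log2 fold changes of −0.56 for *Vim*, −0.34 for *Tmod1*, −0.67 for *Sptan1*, −1.32 for *Sptbn1*, −1.23 for *Ezr* and −1.18 for *Ank2*, opposite in sign to those after TMM scaling. *Bfsp2* also changed sign, to −0.099, and is counted below among the values that moved without a call. This scaling moves the median of all genes to −1.61. In the comparisons within a line it moved that median to between 0.152 and 0.413. With the replicate number as a block, 2 of the 10 genes were called for *Cryaa*-R49C-homo against WT, 4 for *Cryaa*-R49C-homo against het and 0 in the other comparisons within a line, the same genes as without it. Of the single-gene values under an alternative, 1160 either kept their call and direction or stayed without a call within 1 SE of the reported value, 34 gained a call, 46 lost one, 24 moved by more than 1 SE without a call and 6 reversed. The fewest counts in a library were 7 for *Nes* and 41 for *Prx*.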
